A study of Mus musculus with 12 samples.

Results

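The genes of the creatine and calcium futile cycles were followed in a differentiated brown adipocyte line that released a truncated Semaphorin 4B or carried an empty vector, with and without norepinephrine (NE). The members were Gatm, Gamt, Slc6a8, Ckb, Ckmt1, Ckmt2, Alpl and Atp2a2, chosen by gene symbol, and they are 8 of the 48321 genes in the count table. Of these, 5 (Gamt, Slc6a8, Ckb, Alpl and Atp2a2) reached 10 normalized counts in 3 or more of the 12 libraries, as 11998 genes did, and were tested. Gatm, Ckmt1 and Ckmt2 fell below that limit and are described by their reads.

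Brown fat makes heat mainly through UCP1, which lets protons back into the mitochondrial matrix without making ATP, but it can also burn ATP in cycles that do no net work. In the creatine cycle, a creatine kinase moves phosphate from ATP to creatine and a phosphatase removes it again, so that ADP returns to the respiratory chain. Cells make creatine with GATM and GAMT or import it through SLC6A8. CKB and the mitochondrial kinases CKMT1 and CKMT2 phosphorylate it, and tissue-nonspecific alkaline phosphatase (TNAP, encoded by Alpl) has been described as the phosphatase. In the calcium cycle, SERCA2 (Atp2a2) pumps calcium into the endoplasmic reticulum at the cost of ATP, and ryanodine or IP3 receptors let it out again.

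The cells were SV40 large T-immortalized brown preadipocytes from interscapular fat, which the methods trace to a newborn wild-type mouse and the design text to wild-type C57BL/6J mice. They were stably transduced by lentivirus with the empty pLEX plasmid (vector) or with Flag-tagged tSema4B, the truncated soluble ectodomain, and selected with puromycin, which gave 1 line of each kind. Both lines were differentiated to day 8, first in a cocktail containing IBMX, rosiglitazone, dexamethasone, insulin and T3. Maintenance medium followed, which kept only insulin and T3 of these. The cells were then kept in serum-free medium with 2% albumin, either unstimulated or with 2 μM NE for 6 h. Each of the 4 groups has 3 libraries, which the design text calls technical replicates, so every p-value below measures the spread between these libraries and not between independently made lines. In bulk RNA, fewer cells of a type and less RNA per cell cannot be told apart.

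The libraries held 2000780 to 5409583 reads on genes. Those of the NE-treated vector line were the deepest, at 4739777 or more each. Values are normalized read counts (reads divided by a size factor for each library), and 1 read was worth 0.593 to 1.55 of them. Without NE, Sema4b averaged 116797 normalized counts in the vector line and 281514 in the tSema4B line, and with NE 74266 and 234276, so the targeted gene was higher in the tSema4B line in both conditions. It took 7.01% to 10.2% of the reads in tSema4B libraries, but also 2.04% to 4.02% in those of the empty vector line. Mitochondrially encoded genes took 13.4% to 16.7% of the reads in vector libraries and 6.91% to 7.89% in tSema4B libraries.

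The differentiation markers moved strongly between the lines. Of 14 tested brown adipocyte markers, 12 were lower in the tSema4B line in each condition. Among all tested genes, 7.39% were lower without NE and 11.2% with NE. The summed level of these markers was 40466 to 46059 normalized counts in the unstimulated vector line against 6757 to 9541 in tSema4B. With NE the sums were 53845 to 65463 and 10662 to 12056. Dio2, a defining brown fat gene, had no read in any library. Of 10 tested preadipocyte and fibroblast markers, 7 were higher in tSema4B cells without NE and 8 with NE. The shares among all tested genes were 5.64% and 9.79%. The sums of these markers were 17667 to 18577 against 32100 to 36318 without NE and 14578 to 16642 against 29504 to 31528 with NE. Markers also moved with NE. Of the brown adipocyte markers, 2 were higher and 2 lower in vector cells, and 4 higher and none lower in tSema4B cells. Of the preadipocyte and fibroblast markers, 1 was higher and 5 lower in each line. Of 7 listed macrophage markers only 2 were tested, and 2 were higher in vector and 1 in tSema4B cells. The untested ones had few or no reads over all libraries (Adgre1 and Ptprc none, Itgam 1, Lyz2 5 and Cd68 42). Among all tested genes, 6.82% were higher and 4.78% lower in vector cells, and 3.68% and 2.58% in tSema4B cells. The part of the markers in the results below was not tested.

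RefSeq promoter windows, the 250 bases before a transcription start in GRCm38.p6, were found for 6 of the 8 members (8 windows). Those of Gamt, the member that fell with NE, of Ckb and of both Alpl starts are shown, 5′ to 3′ on the gene's strand, with motif letters found on either strand in capitals. The GC box (GGGCGG) occurs in 32.7% of 32851 such windows of all genes, the CCAAT box (CCAAT) in 33.9%, the TATA box (TATAAA) in 12.4%, the nuclear receptor half-site (AGGTCA) in 14.0% and the half-site of the cAMP response element (TGACG) in 17.8%.
Gamt (chr10:80261013-80261262, minus strand): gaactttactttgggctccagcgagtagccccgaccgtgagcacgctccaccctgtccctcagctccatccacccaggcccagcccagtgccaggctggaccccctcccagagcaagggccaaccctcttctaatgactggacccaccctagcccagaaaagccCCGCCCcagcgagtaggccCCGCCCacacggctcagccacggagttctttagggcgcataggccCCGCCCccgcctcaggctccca
Ckb (chr12:111672339-111672588, minus strand): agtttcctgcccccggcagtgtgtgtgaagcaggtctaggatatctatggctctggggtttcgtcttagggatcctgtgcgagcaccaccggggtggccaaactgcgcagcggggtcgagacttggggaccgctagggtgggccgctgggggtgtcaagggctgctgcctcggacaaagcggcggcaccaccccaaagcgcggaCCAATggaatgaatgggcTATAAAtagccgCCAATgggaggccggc
Alpl, upstream start (chr4:137796385-137796634, minus strand): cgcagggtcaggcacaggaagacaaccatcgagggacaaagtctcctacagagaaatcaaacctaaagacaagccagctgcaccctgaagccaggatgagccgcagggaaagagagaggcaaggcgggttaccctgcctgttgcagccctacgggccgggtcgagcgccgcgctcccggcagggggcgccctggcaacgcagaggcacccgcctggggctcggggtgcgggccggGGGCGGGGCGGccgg
Alpl, downstream start (chr4:137766476-137766725, minus strand): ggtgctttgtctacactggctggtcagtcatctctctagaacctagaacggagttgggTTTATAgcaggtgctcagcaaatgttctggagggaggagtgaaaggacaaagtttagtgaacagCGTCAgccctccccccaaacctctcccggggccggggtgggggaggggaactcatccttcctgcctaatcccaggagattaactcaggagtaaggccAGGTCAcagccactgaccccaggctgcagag

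The windows differ in kind. Gamt has 3 GC boxes, all read on the opposite strand, at -86 to -81, -67 to -62 and -22 to -17 from the start, with no TATA letters and a GC content of 66.8%. Ckb has a TATA box at -28 to -23 between CCAAT boxes at -46 to -42 and -16 to -12. The upstream Alpl start has 2 overlapping GC boxes and a GC content of 68.4%. The downstream Alpl start has a GC content of 56.0%, TATA letters at -192 to -187, an AGGTCA half-site at -31 to -26 and a TGACG half-site at -128 to -124, which was the only TGACG in the 8 windows. The full cAMP response element (TGACGTCA, 1.55% of all windows), the ERR element (TCAAGGTCA, 0.387%) and the E-box (CACGTG, 6.02%) were in none of the 8. A match of letters is a description of the window and shows no binding.

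**Figure D1:**
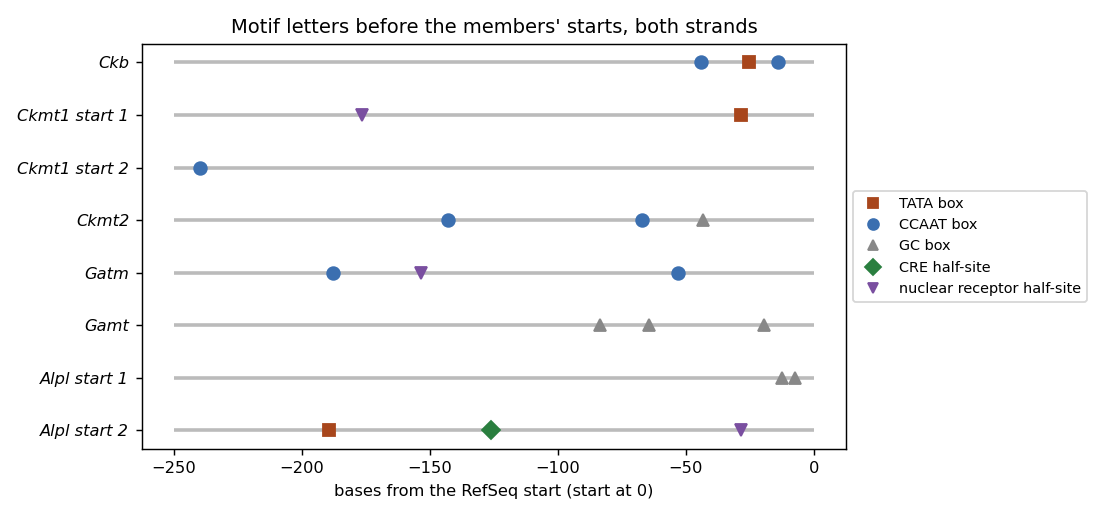
Motif letters in the 250 bases before the RefSeq starts of the members with a window. The x axis is the distance in bases from the start, each grey line is 1 window and each symbol 1 motif match on either strand. GC boxes cluster near the Gamt start and the upstream Alpl start, and the single cAMP-response half-site lies before the downstream Alpl start.

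Creatine synthesis starts with GATM, the amidinotransferase that joins arginine and glycine into guanidinoacetate. Gatm (chr2:122594467-122611303, minus strand) was near the limit of detection. It had 5, 2 and 8 reads in the unstimulated vector libraries, 1, 4 and 6 in unstimulated tSema4B, 5, 5 and 4 in NE-treated vector, and none in the 3 NE-treated tSema4B libraries. Summed over libraries, 14 of 15076616 reads in NE-treated vector cells came from Gatm (0.929 CPM, that is, counts scaled to a common library total, exact 95% Clopper-Pearson interval 0.508 to 1.56) and 0 of 8228443 in NE-treated tSema4B cells, a count that allows up to 0.365 CPM. The limit is 3 reads over the group, and the exact interval for the same count reaches 0.448 CPM. Unstimulated tSema4B cells stood at 1.63 CPM (interval 0.812 to 2.91). These limits and intervals cover counting error only. When limma was run with no filter on low counts, Gatm passed in neither comparison (adjusted p = 0.0960 and 0.0969).

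GAMT, the methyltransferase that turns guanidinoacetate into creatine, gave the only call among the members within a single line or condition. Gamt (chr10:80258151-80261012, minus strand) measured 83.6, 67.3 and 63.2 normalized counts in unstimulated vector, 83.4, 54.1 and 73.9 in unstimulated tSema4B, 36.3, 47.4 and 34.7 in NE-treated vector and 22.5, 27.5 and 50.2 in NE-treated tSema4B cells. All 6 NE-treated libraries lay below all 6 unstimulated ones, while the 2 lines overlapped in each condition. The means were 71.4 ± 10.8 and 70.5 ± 14.9 without NE and 39.5 ± 6.93 and 33.4 ± 14.8 with NE (SD, n = 3), in the order vector and tSema4B, from 21 to 80 reads per library.

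In the tSema4B line, Gamt fell with NE to 0.461 of its unstimulated level (log2 fold change -1.12 ± 0.30 SE, 95% interval -1.74 to -0.50, limma adjusted p = 0.0260). In the vector line the change was -0.84 ± 0.30 (interval -1.46 to -0.22, limma adjusted p = 0.0734) and did not pass, although the groups did not overlap. The difference between the lines in this response was -0.27 (interval -1.15 to 0.60, adjusted p = 0.874 by limma's interaction term), so a difference between the lines was not detected, and the interval leaves room for one. Averaged over both lines, a comparison added after the data had been seen, Gamt fell by 0.98 on the log2 scale (SE 0.21, limma adjusted p = 0.00230), to 0.507 of the unstimulated level. Leaving out any 1 of the 4 libraries tSema4B unstimulated 1 or 3 or tSema4B NE 1 or 2 ended the call in the tSema4B line (adjusted p = 0.102, 0.0748, 0.102 and 0.0842).

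SLC6A8 is the plasma membrane transporter that brings creatine into the cell. Slc6a8 (chrX:73673150-73682502, plus strand) measured 30.4, 33.6 and 13.1 normalized counts in unstimulated vector, 36.9, 6.19 and 31.5 in unstimulated tSema4B, 22.8, 24.9 and 14.4 in NE-treated vector and 40.7, 31.2 and 9.25 in NE-treated tSema4B cells. In each group the lowest library stood farther from the other 2 than these stood from each other. It did not carry the same replicate number in all groups. The groups overlapped in every comparison. The spread was the widest of the tested members: the fold change between the lines without NE was -0.26 with an interval of -1.47 to 0.94 on the log2 scale. These data therefore bound the change of Slc6a8 only loosely.

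The cytosolic brain-type kinase CKB was the only creatine kinase of the members with measurable RNA. Ckb (chr12:111669361-111672338, minus strand) measured 33.7, 18.5 and 24.0 normalized counts in unstimulated vector, 21.5, 46.4 and 41.1 in unstimulated tSema4B, 16.1, 15.4 and 32.7 in NE-treated vector and 18.2, 11.4 and 33.0 in NE-treated tSema4B cells. Groups overlapped in all comparisons. The largest difference was a change of -0.82 with NE in the tSema4B line (interval -1.73 to 0.09, limma adjusted p = 0.306). GENCODE lists pseudogenes of Ckb, and reads shared with them could have been lost or split, so its level is uncertain.

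The mitochondrial kinases were essentially without reads. Ckmt1, the ubiquitous form (chr2:121357714-121363737, plus strand), had 1 read, in the library tSema4B unstimulated 1, among 39473125 reads in all. Ckmt2, the form of striated muscle (chr13:91853387-91876885, minus strand), had 0 of 39473125, which allows up to 0.0760 CPM. Ckm, the cytosolic muscle kinase, also had none. At this depth no level or change of these kinases could be measured in any group.

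TNAP is a phosphatase anchored at membranes and widely used as a marker of osteoblasts. Alpl (chr4:137741733-137796384, minus strand) measured 27.1, 34.5 and 27.2 normalized counts in unstimulated vector, 38.1, 21.7 and 21.9 in unstimulated tSema4B, 65.2, 42.1 and 47.1 in NE-treated vector and 70.8, 40.7 and 19.8 in NE-treated tSema4B cells. In the vector line every NE-treated library was above every unstimulated one. In the tSema4B line the library NE 3 was below all unstimulated ones. The change with NE was 0.76 ± 0.38 in vector cells (interval -0.03 to 1.56, limma adjusted p = 0.233) and 0.54 ± 0.38 in tSema4B cells (interval -0.26 to 1.33, limma adjusted p = 0.477), and the mean of both lines was 0.65 (limma adjusted p = 0.109). Without the library tSema4B NE 3, that mean was 0.88 and passed (limma adjusted p = 0.0150). It passed on leaving out no other library, and without tSema4B NE 1 it was 0.44 (limma adjusted p = 0.283). Counts per gene do not separate transcripts from the 2 starts shown above. Of 9 other osteoblast markers, 6 were tested. Between the lines 1 was higher and none lower in each condition. Among all tested genes the shares were 5.64% and 7.39% without NE and 9.79% and 11.2% with NE. With NE 1 was higher and 2 lower in each line. The shares there were 6.82% and 4.78% in vector and 3.68% and 2.58% in tSema4B cells. Ibsp had no read, and the part of these markers in the Alpl values was not tested.

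SERCA2 was the best measured member, with 124 to 424 reads per library. Atp2a2 (chr5:122453513-122502225, minus strand) measured 218 normalized counts in each of the 3 unstimulated vector libraries, 224, 192 and 209 in unstimulated tSema4B, 257, 251 and 228 in NE-treated vector and 253, 290 and 274 in NE-treated tSema4B cells. Every NE-treated library was above every unstimulated library, and the 2 lines overlapped in each condition. With NE the change was 0.17 ± 0.13 in vector cells (interval -0.09 to 0.43, limma adjusted p = 0.458) and 0.38 ± 0.13 in tSema4B cells (interval 0.12 to 0.65, limma adjusted p = 0.0783), and neither passed. Their mean over both lines, 0.28 ± 0.09, passed (1.21-fold, interval 1.06 to 1.38, limma adjusted p = 0.0382). That call was lost on leaving out any 1 of 8 of the 12 libraries, with the log2 fold change between 0.25 and 0.30 in all 12 cases. Counts per gene do not separate the muscle and ubiquitous isoforms of the pump, and 83 exon bases are shared with a gene model on the opposite strand.

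**Figure D2:**
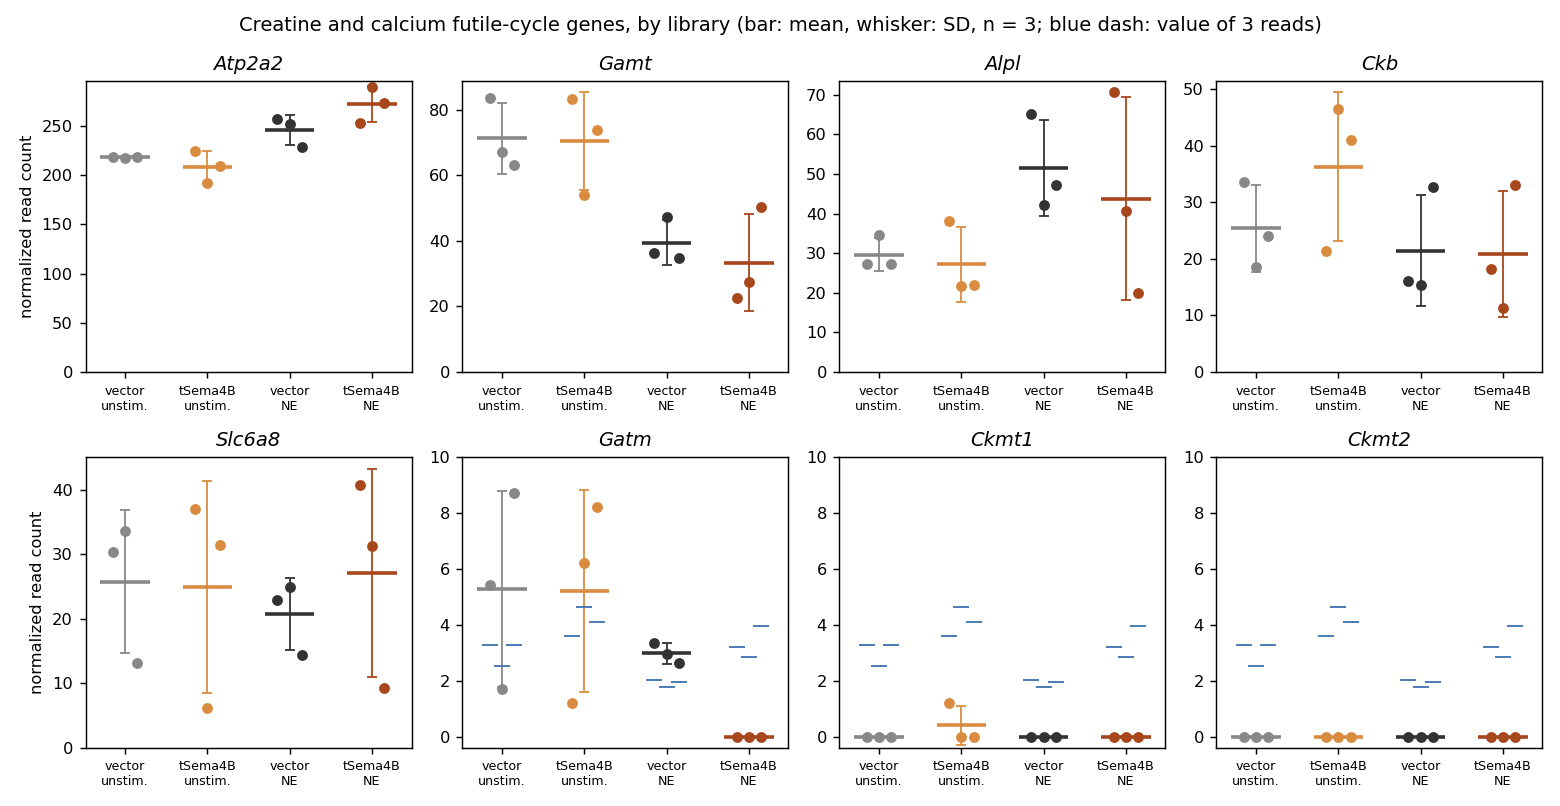
Normalized read counts of the 8 members in each library (points), with the mean (bar) and SD (whisker) of 3 libraries per group. In the panels of Gatm, Ckmt1 and Ckmt2, blue dashes mark the value of 3 reads in each library. Gamt is lower and Atp2a2 higher in all 6 NE-treated libraries than in the 6 unstimulated ones, and Ckmt1 and Ckmt2 lie at or near 0.

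The first question put to these genes is whether the tSema4B line differed from the vector line. Without NE, 0 of 5 tested members passed in either direction (limma, adjusted p at most 0.05), where 5.64% of all tested genes were higher and 7.39% lower. With NE, again 0 of 5 passed, against 9.79% of all genes higher and 11.2% lower. None had an unadjusted p under 0.05 in either condition, edgeR and DESeq2 likewise called 0, and the groups overlapped for all 5, where 29.4% of all genes without NE and 37.7% with NE had groups that did not overlap.

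How large a difference could have been missed varied by gene. Averaged over both conditions, the tSema4B effect on Atp2a2 was 0.04 with an interval of -0.15 to 0.23 on the log2 scale, or 0.903 to 1.17-fold. For Gamt the interval was -0.60 to 0.27, for Alpl -0.83 to 0.29, for Ckb -0.45 to 0.84 and for Slc6a8 -0.90 to 0.81. None of the 5 passed in that average, in which 13.9% of all genes were higher and 15.2% lower. The interval is narrow for Atp2a2 alone. Those of the others reached down to 0.658 of the vector level for Gamt, 0.562 for Alpl and 0.537 for Slc6a8, and up to 1.79-fold for Ckb.

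The second question is how the genes responded to 6 h of NE. In vector cells 0 of 5 passed, against 6.82% of all genes higher and 4.78% lower, and the groups did not overlap for 3 (Gamt lower, Alpl and Atp2a2 higher), against 33.3% of all genes. Gamt was called there by DESeq2, and by limma with the 6 vector libraries only and with reads thinned to 2000780 per library (adjusted p = 0.0332, 0.0172 and 0.0147), and with thinned reads the call in tSema4B cells was lost (limma adjusted p = 0.0858). In tSema4B cells 1 of 5 passed (Gamt, lower), against 3.68% higher and 2.58% lower, and 2 did not overlap (Gamt lower, Atp2a2 higher), against 20.7%. Over both lines together, the 6 NE-treated and 6 unstimulated libraries did not overlap for 2 members, against 3.84% of all genes. In the mean over both lines 1 was higher (Atp2a2) and 1 lower (Gamt), against 8.83% and 7.53% of all genes. No member passed the interaction of tSema4B and NE, nor did any have an unadjusted p under 0.05 there, and 3 of all tested genes (0.025%) passed it. With 5 tested members, these counts are too few to set the members apart from the other genes. The comparisons between lines and those with NE share libraries and are not independent of each other.

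**Figure D3:**
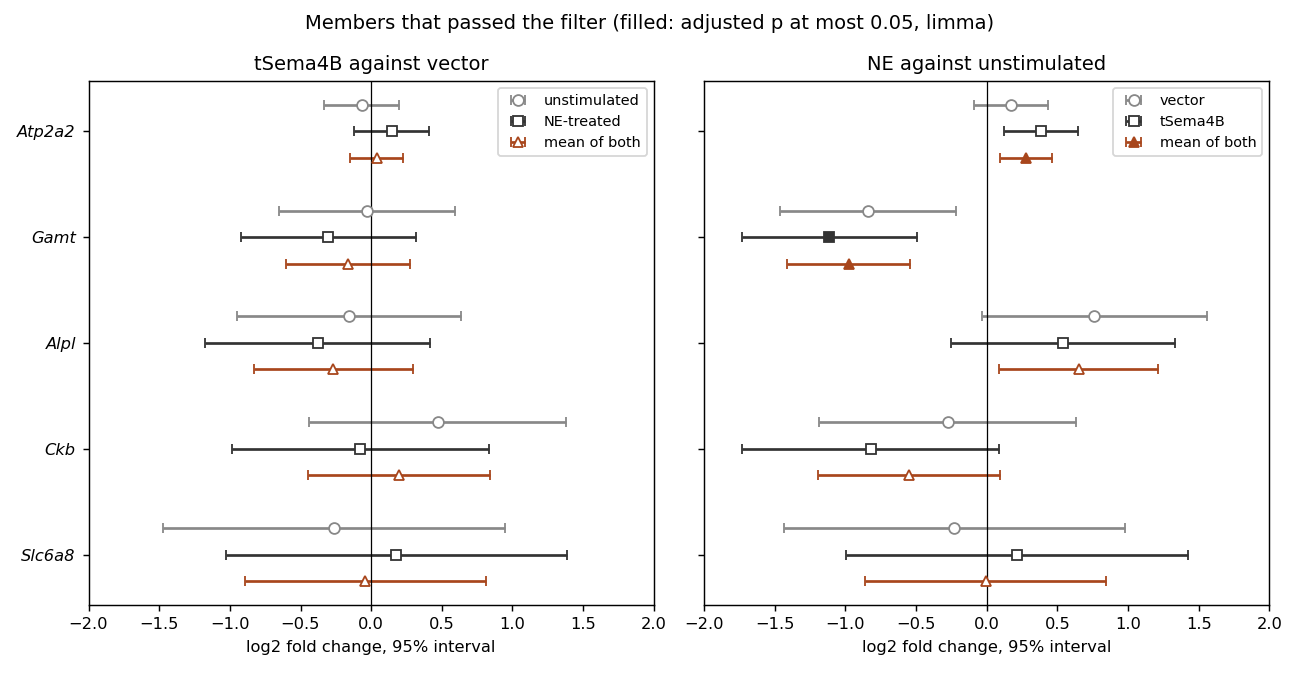
Log2 fold changes (x axis) with 95% intervals for the 5 tested members, for tSema4B against vector (left) and NE against unstimulated (right). Symbols separate the conditions or lines and their mean, and filled symbols passed an adjusted p of at most 0.05 in limma. On the left all intervals include 0. On the right Gamt passed in tSema4B cells and in the mean, and Atp2a2 in the mean.

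Per kilobase of exon, the members spanned a wide range. The level, averaged over the 4 groups, was 38.8 normalized counts per kb for Atp2a2, 37.2 for Gamt, 9.43 for Alpl, 8.98 for Ckb, 4.72 for Slc6a8, 1.12 for Gatm, 0.0398 for Ckmt1 and 0 for Ckmt2. The order of the leading pair depended on NE. Without NE, Gamt stood at 49.4 ± 7.49 per kb in vector cells and Atp2a2 at 35.8 ± 0.05, and with NE Gamt stood at 27.3 ± 4.80 and Atp2a2 at 40.4 ± 2.50. Alpl and Ckb did not differ beyond their spread without NE (7.34 ± 1.04 and 8.76 ± 2.65 in vector cells). RNA for the last step of creatine synthesis (Gamt) was thus far more abundant per kb than that for the first (Gatm), for which 40 reads were found in all libraries.

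**Figure D4:**
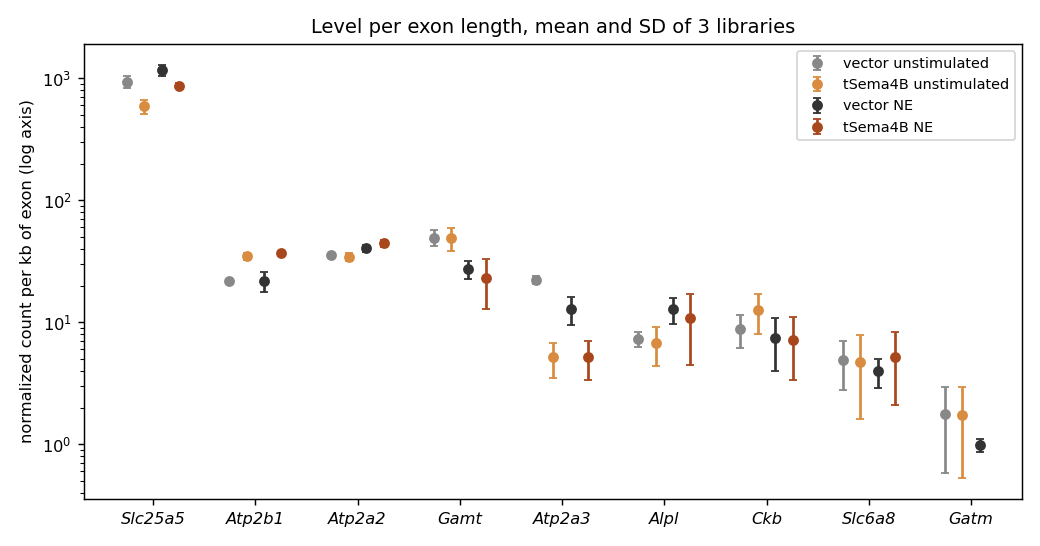
Normalized counts per kb of exon (log axis), mean and SD of 3 libraries. Shown are the members with measurable RNA and 3 genes of the lists described below (Slc25a5, Atp2b1, Atp2a3). Gatm in NE-treated tSema4B cells is at 0 and is not drawn. Atp2a3 separates the lines, and Atp2a2 does not.

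Around the members, genes of known role near each pathway were described as lists. Where a gene has a pair of values for tSema4B against vector cells, they are log2 fold changes without NE and with NE, in that order, and pairs for the NE response are vector and then tSema4B. Of 17 other genes listed around the creatine pathway, 11 were tested, and none of those called makes, imports or phosphorylates creatine. In tSema4B against vector cells, none was higher and 4 were lower without NE, beside 5.64% and 7.39% of all tested genes, and 2 were higher and 5 lower with NE, beside 9.79% and 11.2%. The median log2 fold change was -0.24 without NE and -0.29 with NE, against -0.00 and -0.01 over all genes. Slc6a6, the taurine transporter of the same family as the creatine carrier, stood at 836 ± 47.9 normalized counts in vector and 328 ± 27.8 in tSema4B cells without NE (-1.35 ± 0.12, limma adjusted p = 2.72e-08) and was lower, at -0.90 with NE (limma adjusted p = 8.66e-06). Slc25a5, a mitochondrial ADP/ATP carrier, was lower, at -0.67 and -0.42 (limma adjusted p = 5.01e-05 and 0.00388). Mat2b, the regulatory subunit of the enzyme that makes the methyl donor used by GAMT, was lower, at -0.69 without NE (limma adjusted p = 7.87e-05), and gave -0.26 with NE, which did not pass (limma adjusted p = 0.0906). Nnmt, a methyltransferase that uses the same methyl donor, was lower with NE (-1.29, limma adjusted p = 1.32e-05) and gave -0.52 without NE, which did not pass (limma adjusted p = 0.0538). Mat2a, the catalytic subunit beside Mat2b, was lower with NE (-0.58, limma adjusted p = 0.00302) and gave -0.07 without NE (limma adjusted p = 0.775). Vdac1, an outer-membrane channel, was lower, at -0.43 and -0.26 (limma adjusted p = 0.00185 and 0.0410). Its call with NE was lost in 10 of 18 alternatives, among them leaving out vector NE 2 or 3 or tSema4B NE 2 or 3 (limma adjusted p = 0.136, 0.120, 0.0793 and 0.144). Slc25a4, the other ADP/ATP carrier gene with reads, went the other way and was named after its values were seen. It stood at 1367 ± 23.6 and 1514 ± 43.2 normalized counts in vector and tSema4B cells without NE (0.15, limma adjusted p = 0.249) and at 1245 ± 88.6 and 1483 ± 75.8 with NE (0.25, limma adjusted p = 0.0245). The latter call was lost without the library vector NE 1, tSema4B NE 1 or tSema4B NE 3 (limma adjusted p = 0.138, 0.0752 and 0.0715). Oat was also higher with NE (0.35, limma adjusted p = 0.0135) and gave 0.05 without NE (limma adjusted p = 0.780).

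With NE, 2 genes of this list were higher and 1 lower in vector cells, beside 6.82% and 4.78% of all tested genes. In tSema4B cells 3 were higher and none lower, beside 3.68% and 2.58%. Nnmt rose from 231 ± 39.3 to 697 ± 67.1 normalized counts in vector cells (1.60 ± 0.17, limma adjusted p = 2.10e-06) and from 163 ± 43.1 to 288 ± 58.9 in tSema4B cells (0.83, limma adjusted p = 0.00454). Slc25a5 rose by 0.33 in vector and 0.57 in tSema4B cells (limma adjusted p = 0.0341 and 0.000724). The call in vector cells was lost without the library vector unstimulated 2, vector unstimulated 3 or vector NE 3 (limma adjusted p = 0.131, 0.145 and 0.211). Oat gave 0.03 in vector cells (limma adjusted p = 0.890) and rose by 0.33 in tSema4B cells (limma adjusted p = 0.0490). The latter call was lost in 10 of 18 alternatives. Slc6a6 was the gene that fell in vector cells (-0.72, limma adjusted p = 0.000269), and it gave -0.27 in tSema4B cells, which did not pass (limma adjusted p = 0.193). Phospho1, a phosphatase of phosphocholine and phosphoethanolamine, had 38 reads in all and was not tested. Nnmt thus rose with NE in both lines, while Gamt was lower in all NE-treated libraries.

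Of 14 other pump genes and regulators, 7 were tested, with 1 higher and 3 lower in tSema4B cells without NE (5.64% and 7.39% of all tested genes) and 1 higher and 2 lower with NE (9.79% and 11.2%). Atp2a3 (SERCA3) stood at 118 ± 9.05 normalized counts in unstimulated vector and 27.2 ± 8.60 in unstimulated tSema4B cells (-2.12 ± 0.31, limma adjusted p = 3.58e-05), and at 67.5 ± 17.5 and 27.6 ± 9.75 with NE (-1.28, limma adjusted p = 0.00456). Per kb this was 22.3 against 5.16 without NE, beside 35.8 and 34.3 for Atp2a2. S100a1, a small calcium-binding protein known to activate SERCA and ryanodine receptors in muscle, was lower, at -1.42 and -2.15 (limma adjusted p = 7.12e-05 and 2.81e-07). Atp2b1, the plasma membrane calcium pump, was higher by 0.65 and 0.77 (limma adjusted p = 0.000765 and 9.24e-05). Slc8b1, the mitochondrial sodium/calcium exchanger, was lower, at -0.73 without NE (limma adjusted p = 0.00778), and gave -0.48 with NE, which did not pass (limma adjusted p = 0.0617). It fell with NE in both lines (-0.98 and -0.72, limma adjusted p = 0.000929 and 0.0154). The call in tSema4B cells was lost without tSema4B unstimulated 2 or tSema4B NE 3 (limma adjusted p = 0.0530 and 0.0672).

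The muscle partners of the pump were nearly absent. Sln, the SERCA uncoupler sarcolipin, had no read, Pln (phospholamban) had 21 and Atp2a1 (SERCA1) 6. Of 15 release-channel and mitochondrial uptake genes, 12 were tested. In tSema4B cells 1 was higher and 1 lower without NE (5.64% and 7.39% of all tested genes). With NE there were 2 of each (9.79% and 11.2%). Leaving out 1 library gave 1 to 3 called genes of this list without NE and 2 to 5 with NE. Ryr2 had no read, Ryr1 had 3 and Ryr3 had 1, while the IP3 receptor Itpr1 averaged 96.1 ± 22.4 normalized counts in unstimulated vector cells.

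Of 15 tested genes of the endoplasmic reticulum lumen and of store refilling, 4 were higher in tSema4B cells without NE and 5 with NE, and none was lower, with medians of 0.14 and 0.36 against -0.00 and -0.01 over all genes. Among all tested genes, 5.64% and 9.79% were higher. Leaving out 1 library gave 2 to 4 called genes of this list without NE and 5 to 6 with NE. Of those called without NE, Asph (0.33, limma adjusted p = 0.0398) and Sdf4 (0.37, limma adjusted p = 0.0179) could lose the call that way. Their limma adjusted p then reached 0.126 and 0.0981. Rcn3, a calcium-binding chaperone of the secretory pathway, stood at 315 ± 13.6 and 611 ± 44.1 normalized counts without NE (0.95, limma adjusted p = 5.33e-05) and was higher by 1.02 with NE (limma adjusted p = 1.85e-05). Rcn1 was higher by 0.53 and 0.56 (limma adjusted p = 0.00222 and 0.000952). Calr, the main luminal calcium buffer calreticulin, was higher by 0.36 with NE (limma adjusted p = 0.000584) and by 0.10 without (limma adjusted p = 0.378). The preadipocyte and fibroblast marker sums given above were higher in the same libraries, and their part was not tested.

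The remaining lists place the members beside the phosphate genes, the receptors and UCP1. Of 4 tested genes of phosphate handling, Enpp1, which makes pyrophosphate, the substrate of TNAP in bone, was higher in tSema4B cells (0.96 and 1.17, limma adjusted p = 3.46e-05 and 2.64e-06) and rose with NE in both lines (0.54 and 0.74, limma adjusted p = 0.0132 and 0.00153). The call in vector cells was lost without vector unstimulated 3 or vector NE 1 (limma adjusted p = 0.0879 and 0.0889). The pyrophosphate exporter gene Ank was lower (-0.61 and -0.70, limma adjusted p = 0.0491 and 0.0172). Its groups overlapped without NE, where the call was lost in 8 of 18 alternatives, among them leaving out vector unstimulated 1 or 2 or tSema4B unstimulated 2 or 3 (limma adjusted p = 0.274, 0.206, 0.126 and 0.149). With NE it was lost without vector NE 1 or tSema4B NE 3 (limma adjusted p = 0.0823 and 0.0558). The intestinal and placental phosphatase genes Alpi, Akp3 and Alppl2 had no read, which leaves Alpl as the only alkaline phosphatase gene with reads. Adrb3, the main NE receptor of rodent brown fat, stood at 129 ± 12.7 normalized counts in vector and 14.6 ± 9.01 in tSema4B cells without NE (limma adjusted p = 1.19e-06). Of the alpha-1 receptor genes, whose products couple to calcium release, Adra1b had 28 reads in all, Adra1d 47 and Adra1a none, and none was tested. Ucp1 was listed at 12.1 ± 2.98 normalized counts in unstimulated vector and at 0 in all unstimulated tSema4B libraries, and reached 276 ± 14.5 and 62.9 ± 3.10 with NE. Ucp1 thus rose with NE in both lines (limma adjusted p = 3.79e-08 in vector and 8.46e-10 in tSema4B cells).

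**Figure D5:**
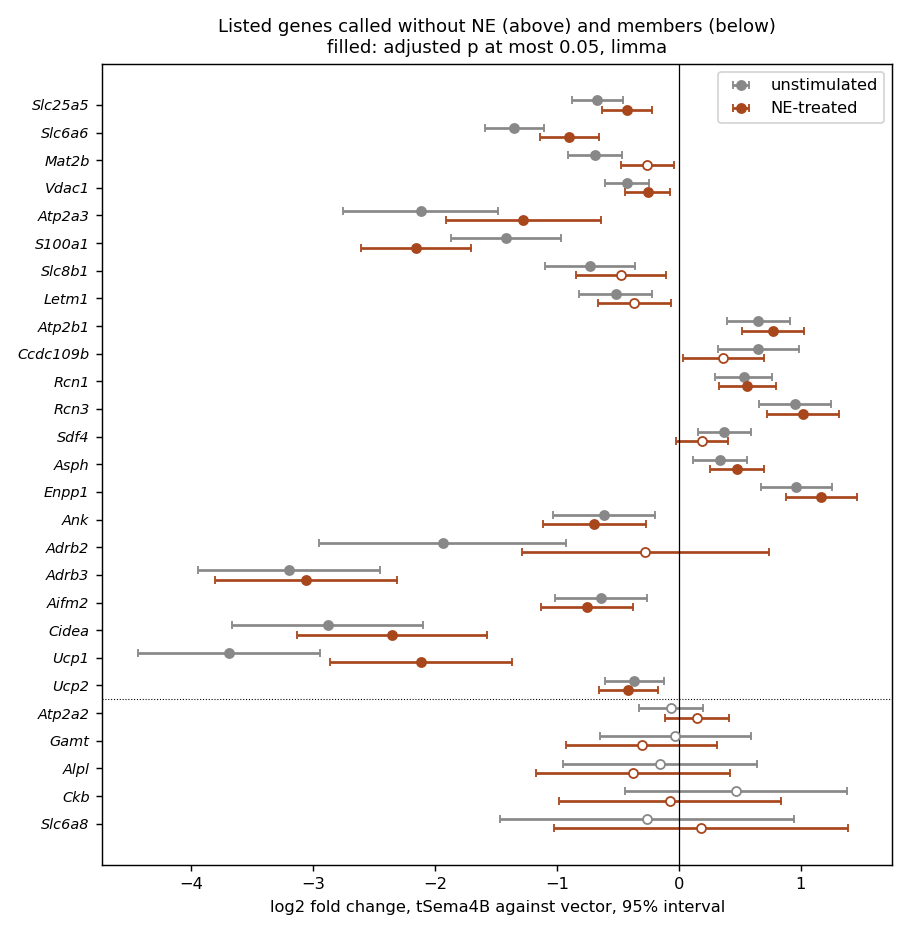
Log2 fold change of tSema4B against vector (x axis, 95% interval) without NE (grey) and with NE (brown). Listed genes called without NE are above the dotted line and the 5 tested members below it. Filled points passed an adjusted p of at most 0.05 in limma. Members lie around 0, with intervals of very different width.

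The genes whose levels followed each member most closely over the 12 libraries were found by Pearson correlation of log2 levels, given as a description over libraries that share groups and depth. For Gamt they were Col15a1 (r = 0.906) and Cbr4 (r = 0.894), and for Atp2a2 Zc3h10 (r = 0.925) and Ldhb (r = 0.923). For Alpl they were Tmbim4 (r = 0.889) and Wdr45b (r = 0.882), for Ckb Mbd1 (r = 0.883) and Srbd1 (r = 0.848), and for Slc6a8 Lrch3 (r = 0.853) and C2cd2l (r = 0.836). No member was among the 2 closest genes of another member.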

How the data were processed

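RNA of 12 libraries (4 groups of 3) was sequenced by the authors as SMART-Seq2 libraries with Nextera XT tagging on a NextSeq2000. Reads were aligned by the authors with STAR 2.7.9a to mm10 (GRCm38.p4) and counted with HTSeq. The annotation and strand setting are not given in the sources used here. The deposited values are counts normalized with DESeq2 by the authors, a signal per gene that is reads divided by a size factor. Dividing by the value of 1 read gave whole reads for 100% of non-zero values within 0.01.

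Levels were tested as log2(normalized count + 1) with limma 3.58.1 (trend, R 4.3.3) in 1 model of the 4 groups, after a filter of 10 normalized counts in 3 libraries, with Benjamini-Hochberg adjustment over 11998 genes and a threshold of 0.05. Fold changes are on that scale, which understates the change of low genes. edgeR 4.0.16 and DESeq2 1.42.0 on recovered reads, other pseudocounts, filters and scalings, thinning to 2000780 reads, a replicate block and leaving out each library were alternatives. Coordinates, exon lengths and overlaps came from GENCODE M21 and promoter windows from RefSeq.

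The members and gene lists were chosen with earlier results of these data known. Named genes were the members, up to 4 called genes per list and comparison with the smallest adjusted p, fixed receptor, pump and uncoupling genes, and the 2 most similar genes per member. Other genes named for having few or no reads were chosen after their values were seen. A result for some named genes is not reported here.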

Additional observations from a re-analysis of the deposited data

How the results depend on the processing

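Of 460 alternatives of single-member values, 428 kept direction and side of the threshold. Nearly all of these values were not called to begin with, so that total says little about calls. The 1 called value, Gamt with NE in tSema4B cells, lost its call in 7 of 18 alternatives. For NE in vector cells, where no member was called, 1 was called (Gamt) with DESeq2, with the 6 vector libraries only and with thinned reads, and 2 in the mean over both lines. For NE in tSema4B cells, where 1 was called, 0 were called with no filter, with 6 libraries only and with thinned reads, 2 in the mean over both lines, and 0 to 1 on leaving out a library. Gamt's adjusted p in those 3 settings was 0.0553, 0.122 and 0.0858 in limma. Some uncalled values changed sign: between the lines with NE, Ckb gave 0.014 with the same total over all genes and, with thinned reads, Ckb gave 0.47, Gamt 0.10 and Slc6a8 -0.21, and the Gamt interaction gave 0.26. Leaving out 1 library, the line difference without NE ran from -0.16 to 0.15 for Gamt and -0.70 to 0.50 for Slc6a8, and with NE from -0.46 to 0.27 for Ckb, -0.22 to 0.79 for Slc6a8 and -0.81 to 0.085 for Alpl. The NE change of Slc6a8 ran from -0.64 to 0.011 in vector and -0.55 to 0.83 in tSema4B cells, and the interaction from -0.32 to 1.05 for Slc6a8 and -0.65 to 0.24 for Alpl. The cause was not tested.

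Samples sharing a number did not deviate together (18 pairs, r from -0.05 to 0.03), so they were not paired. With the replicate block, 1 member was called for NE in tSema4B cells, as without it (Gamt, limma adjusted p = 0.0367), and 0 in the other comparisons. Of 1187 alternatives of the other 66 named results, 1072 stayed on their side of the threshold, 113 lost a call, 2 gained one (Mat2b and Slc8b1 between the lines with NE, with the same total over nuclear genes) and none changed sign. Vdac1, Oat, Asph, Ucp2, Smdt1 and Ank lost calls most often. Ckb, Slc6a8 and Alpl rest on 4 to 97 reads per library, which limits what their tests can show.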
